A study of Mus musculus with 23 samples.

Results

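Fatty acid oxidation and peroxisome genes are described here as a set of 34 genes named by symbol, and all 34 were found among the 22524 genes of 1 expression table and the 25700 genes of the other. The set holds 17 genes of mitochondrial β-oxidation and 12 genes of the peroxisome. Eci2 and Crat, whose products work in both organelles, and Acsl4, Acsl5 and Acot1, which activate or release fatty acids outside the mitochondrial matrix, make up the rest. Expression had been measured by RNA sequencing of macrophages from C57BL/6 mice, 23 libraries in all, each made from 1000 cells collected by flow cytometry. The groups in the vavCre table were RPM_d7_vavCre (spleen red pulp macrophages of 7-day-old pups, genotype vavCre, 3 libraries), RPM_d7_WT (the same cells of wild-type pups, 3 libraries), BMM_d7_vavCre (bone marrow macrophages of 7-day-old vavCre pups, 3 libraries) and BMM_d7_WT (wild type, 3 libraries). The other table held RPM_TAM_CreERT2 (adult spleen, 4 libraries), RPM_TAM_WT (adult spleen, wild type, 2 libraries), RPM_d7_Spic_KO (spleen of 7-day-old pups, 2 libraries) and RPM_d7_Spic_WT (its control, 3 libraries). The vav promoter drives Cre in blood-forming cells, so it is not limited to macrophages, and CreERT2 is a Cre that tamoxifen activates. No label spells out TAM, names a floxed allele or states a mouse's age beyond adult. The series text calls the sorted cells the few that remain without Pparg. Whether replicates came from separate animals is not stated, so every p-value below measures only the spread between these libraries, which may be technical.

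Mitochondrial β-oxidation shortens a fatty acyl-CoA by cycles of dehydrogenation, hydration, a further dehydrogenation and thiolysis, after the carnitine shuttle has brought the acyl group across the inner membrane, and the electrons of the first step leave through the electron transfer flavoprotein. Peroxisomes run a similar cycle on very long and branched chains with their own enzymes, starting with an oxidase that makes hydrogen peroxide. Red pulp and erythroblastic island macrophages engulf red cells and expelled nuclei, whose membranes bring lipid into the cell, and PPARγ is a nuclear receptor that fatty acids activate.

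Values are the deposited normalised read counts, which compare between libraries of 1 table only. Behind them stood 4262479 to 21744201 recovered reads per library in the vavCre table and 692903 to 6289369 in the other, where the shallowest group was RPM_TAM_CreERT2 (at most 1668716). Macrophage markers were present in every group: all 12 genes of the list had reads. Erythroid and B cell transcripts were found in every group too, while 9 of 11 T and natural killer cell markers were at 0 in both RPM_d7_Spic_KO libraries. In bulk libraries fewer cells of a type and less RNA per cell cannot be told apart. Of 7 adipocyte and hepatocyte markers, 3 to 6 were at 0 in all libraries of a group, with Ttr at 0 in all 8 groups. Pparg averaged 3037 ± 838 in RPM_d7_vavCre against 1788 ± 299 in RPM_d7_WT (SD, n = 3 each), and 229.7 ± 35.5 in RPM_TAM_CreERT2 (n = 4) against 130.04 ± 53.4 in RPM_TAM_WT (n = 2), a sum over the gene that does not resolve a deleted exon and so does not check the Cre labels. Spic averaged 1084 ± 216 in RPM_d7_Spic_KO (n = 2) against 2435 ± 594 in RPM_d7_Spic_WT (n = 3); the log2 change of -1.16 passed (limma adjusted p = 0.0319), with reads left in both knockout libraries.

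Exon length was taken as the union of all annotated exons of a gene (1164 bases for Etfb, 8286 for Echs1), so levels per kb depend on the annotation. Scaled by this length, Etfb, the β subunit of the electron transfer flavoprotein, was the member with the highest level in 7 of the 8 groups. It averaged 2315 per kb in RPM_d7_vavCre against 4659.5 per kb in RPM_d7_WT, and 1970.2 per kb in BMM_d7_vavCre against 3155.5 per kb in BMM_d7_WT. Acadl (long-chain acyl-CoA dehydrogenase), Etfa (the α subunit of the same flavoprotein), Acaa2 (mitochondrial 3-ketoacyl-CoA thiolase), Scp2 (peroxisomal thiolase and sterol carrier) and Hsd17b4 (the D-bifunctional enzyme of peroxisomes) followed at 350.0 to 1045 per kb over the groups of the vavCre table. At the low end stood Acaa1b, a peroxisomal thiolase gene whose group means were 0 to 7.28 per kb, and Ehhadh, the L-bifunctional enzyme of peroxisomes, at 3.48 to 22.3 per kb in the vavCre table. In RPM_TAM_CreERT2 Acadl came before Etfb, at 53.8 against 51.2 per kb. The spread between replicates set what could be seen: the median coefficient of variation of the members was 14.3 to 19.0% in the 4 groups of the vavCre table and 20.6 to 49.8% in the other, and 22 of the 34 members had under 20 reads in at least 1 RPM_TAM_CreERT2 library.

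Etfb (ENSMUSG00000004610, chromosome 7, 43444083 to 43457800, plus strand, GRCm38) and Acadm (ENSMUSG00000062908, medium-chain acyl-CoA dehydrogenase, chromosome 3, 153922357 to 153944632, minus strand) were the members that passed the test in the most comparisons. Their 250 bases before the RefSeq start (GRCm38.p6) are printed 5′ to 3′ in each gene's direction, chr7:43443822-43444071 on the plus strand for Etfb and chr3:153944644-153944893 on the minus strand for Acadm. Capitals mark a match, on either strand, to AGGTCA, the hexamer that nuclear receptors such as PPARγ bind in pairs.
Etfb: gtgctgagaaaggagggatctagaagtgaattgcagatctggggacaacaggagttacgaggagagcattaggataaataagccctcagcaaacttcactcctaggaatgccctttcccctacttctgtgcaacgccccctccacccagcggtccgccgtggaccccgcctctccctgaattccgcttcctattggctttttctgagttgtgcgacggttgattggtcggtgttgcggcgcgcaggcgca
Acadm: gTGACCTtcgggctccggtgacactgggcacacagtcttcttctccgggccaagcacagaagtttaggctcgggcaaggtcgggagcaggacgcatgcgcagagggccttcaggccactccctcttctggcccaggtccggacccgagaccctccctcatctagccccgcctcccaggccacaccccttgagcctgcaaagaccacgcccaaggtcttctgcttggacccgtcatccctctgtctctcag
The Acadm window holds the hexamer on its opposite strand near the far end, and the Etfb window holds none. Among the 30 windows of the 29 members found in the RefSeq table, 5 hold AGGTCA (those of Acadm, Acadvl, Cpt1a, Echs1 and Scp2), against 14.02% of all 32851 promoter windows. The paired form AGGTCANAGGTCA, whose matches also match the hexamer, is in 0 of the 30 and in 0.0335% of all windows. GAGGAA, the core that ETS factors of the PU.1 and SPIC type bind, is in 3 of the 30 (Acot8, Etfa and Scp2) and in 23.3% of all, on either strand.

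In the spleen, vavCre macrophages had less RNA of Etfb and Acadm, and the other 32 members did not pass the test. Each gene's value was transformed as log2(value + 1), which understates changes of low genes, and tested with limma over all 15130 genes, with an adjusted p under 0.05 as the threshold. Of the 34 members 0 rose, against 2.98% of all genes tested, and 2 fell (5.88%), against 2.54% of all genes; in either direction 5.52% of all genes passed. Etfb had 3148, 2343 and 2592 normalised reads in RPM_d7_vavCre against 5562, 5180 and 5529 in RPM_d7_WT. All 3 vavCre libraries lay well under the lowest wild-type library. The log2 change was -1.02 ± 0.13 (SE; limma adjusted p = 5.34e-05), and Etfb passed in every alternative and with each library left out. Acadm, which starts the oxidation of medium-chain acyl-CoA, had 979, 916 and 811 in RPM_d7_vavCre against 1600, 1438 and 1566 in RPM_d7_WT. The groups again did not overlap, with a log2 change of -0.77 ± 0.17 (limma adjusted p = 0.00727). Without RPM_d7_vavCre replicate 3 the adjusted p of Acadm was 0.0523.

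The partners of these genes did not pass the test. Etfa, which pairs with Etfb in the flavoprotein, had a log2 change of -0.12 (95% interval -0.46 to 0.22), and Etfdh, the ubiquinone oxidoreductase that takes the electrons on, one of -0.26 (-0.71 to 0.19). Acadl, the neighbouring dehydrogenase in chain length, was at 0.22 (-0.17 to 0.60). Carnitine palmitoyltransferase Cpt1a, the entry step, had 1752, 2092 and 1989 in RPM_d7_vavCre against 1360, 1464 and 1436 in RPM_d7_WT. Its groups did not overlap, yet its log2 change of 0.45 ± 0.19 did not pass (limma adjusted p = 0.231). Cpt2, the matching enzyme inside the inner membrane, was at -0.73 (limma adjusted p = 0.303). In all, 11 of the 34 members had groups that did not overlap, or 32.4%, against 24% of all genes, and the median log2 change was -0.16 over the members against -0.02 over all genes. Among the 12 peroxisomal members 0 passed. Pex11a, which divides peroxisomes, had the largest change below 0 of them, -1.07 ± 0.48 (limma adjusted p = 0.272), and the importer Abcd2 was at -0.76 (0.237).

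In the marrow the same pair of genes was lower in vavCre macrophages, together with Acads and Ehhadh. Here 0 of 34 members rose, against 3.41% of all genes, and 4 fell (11.8%), against 4.4% of all genes; in either direction 7.81% of all genes passed. Etfb had 1980, 2481 and 2419 in BMM_d7_vavCre against 3758, 3438 and 3823 in BMM_d7_WT, a log2 change of -0.68 ± 0.13 (limma adjusted p = 0.00286). It passed with each library left out in turn. Acadm had 749, 694.5 and 597.5 in BMM_d7_vavCre against 1046, 1101 and 1154 in BMM_d7_WT, a change of -0.70 ± 0.17 (limma adjusted p = 0.0128). The groups of both genes were apart, but the Acadm call was lost without BMM_d7_WT replicate 3 (limma adjusted p = 0.051), without BMM_d7_vavCre replicate 3 (0.0518) and with only the 2 compared groups in the fit (0.074). Acads, short-chain acyl-CoA dehydrogenase, had 25.1, 32.7 and 33.95 in BMM_d7_vavCre against 131, 65.7 and 145 in BMM_d7_WT. Its change was -1.79 ± 0.51 (limma adjusted p = 0.0364). In the spleen Acads was also lower, at 64.3 to 77.3 in RPM_d7_vavCre against 91.4 to 141.9 in RPM_d7_WT. Those groups were apart, but Acads did not pass there. Ehhadh had 10.5, 4.85 and 15.8 in BMM_d7_vavCre, from 4 to 7 recovered reads each, against 46.3, 89.4 and 49.1 in BMM_d7_WT, a change of -2.52 ± 0.69 (limma adjusted p = 0.0285). Neither call was stable: that of Acads was lost in 9 of 12 fits with 1 library left out (limma adjusted p up to 0.138, all but those without RPM_d7_vavCre replicate 1 or 3 or BMM_d7_WT replicate 2), and the Ehhadh call when BMM_d7_vavCre replicate 2 (0.0771) was left out or either replicate 2 or 3 of BMM_d7_WT (0.0999 and 0.0585). With only the compared groups in the fit neither passed (limma adjusted p = 0.193 and 0.185), nor did they in edgeR with TMM factors on recovered reads (0.0516 and 0.0649).

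Below the threshold in the marrow were 4 further mitochondrial members whose groups did not overlap, in both directions. Acot2, a matrix thioesterase, stood at -0.69 (limma adjusted p = 0.18) and Hadhb, the thiolase subunit of the trifunctional protein, at -0.55 (0.19). Echs1, the short-chain hydratase, stood at 0.32 (limma adjusted p = 0.403) and Hadh, the short-chain 3-hydroxyacyl-CoA dehydrogenase, at 0.34 (0.492). Hadha, the other subunit, stood at -0.30. Its RefSeq start lies 273 bases from that of Hadhb on chromosome 5, in the opposite direction. Groups did not overlap in 13 of 34 members, or 38.2%, against 19.8% of all genes, and the median change was -0.15 against -0.04. The medians of the compartments were -0.11 for the 17 mitochondrial and 0.04 for the 12 peroxisomal members in the marrow, and -0.12 and -0.16 in the spleen. Acaa1b was at 0 in all BMM_d7_vavCre libraries and at 26.1, 0 and 16.7 in BMM_d7_WT, and did not pass (limma adjusted p = 0.138).

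Further members missed the threshold in both tissues of the vavCre table; the plot of log2 changes with intervals holds every member. Eci2, an enoyl-CoA isomerase of both organelles, stood at -0.55 in vavCre spleen, where its groups did not overlap, and at -0.51 in vavCre marrow on the log2 scale (limma adjusted p = 0.165 and 0.16). Those that act outside the matrix were all below 0 in both tissues: the thioesterase Acot1 at -0.47 and -0.72, and the acyl-CoA synthetases Acsl4 at -0.10 and -0.40 and Acsl5 at -0.35 and -0.29. Abcd3, a peroxisomal importer, stood at -0.54 in the spleen, with groups apart, and at 0.32 in the marrow, and Acadvl at -0.51 and -0.11. Crat, a carnitine acetyltransferase, stood at 0.22 in the spleen and, with groups apart, at 0.47 in the marrow. Hadh stood at 0.59 in the spleen, with groups apart. Eci1, the mitochondrial enoyl-CoA isomerase, stood at -0.19 and -0.42, and Echs1 was at -0.08 in the spleen. Of the peroxisomal enzymes, the oxidase Acox3 stood at 0.00 in the spleen and 0.53 in the marrow. The thiolase Acaa1a was at -0.16 and -0.39, the dienoyl-CoA reductase Decr2 at 0.15 and 0.07, the thioesterase Acot8 at -0.16 and 0.00, and the carnitine octanoyltransferase Crot, which lets shortened chains leave the peroxisome, at 0.29 and 0.57. Hsd17b4 was at 0.02 and 0.23, and Scp2 at -0.26 and -0.24. The marrow groups of Acaa1a, Crot and Scp2 were apart. So were those of Abcd2, at 219.5 to 343 in BMM_d7_vavCre against 349.5 to 577 in BMM_d7_WT.

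**Figure D1:**
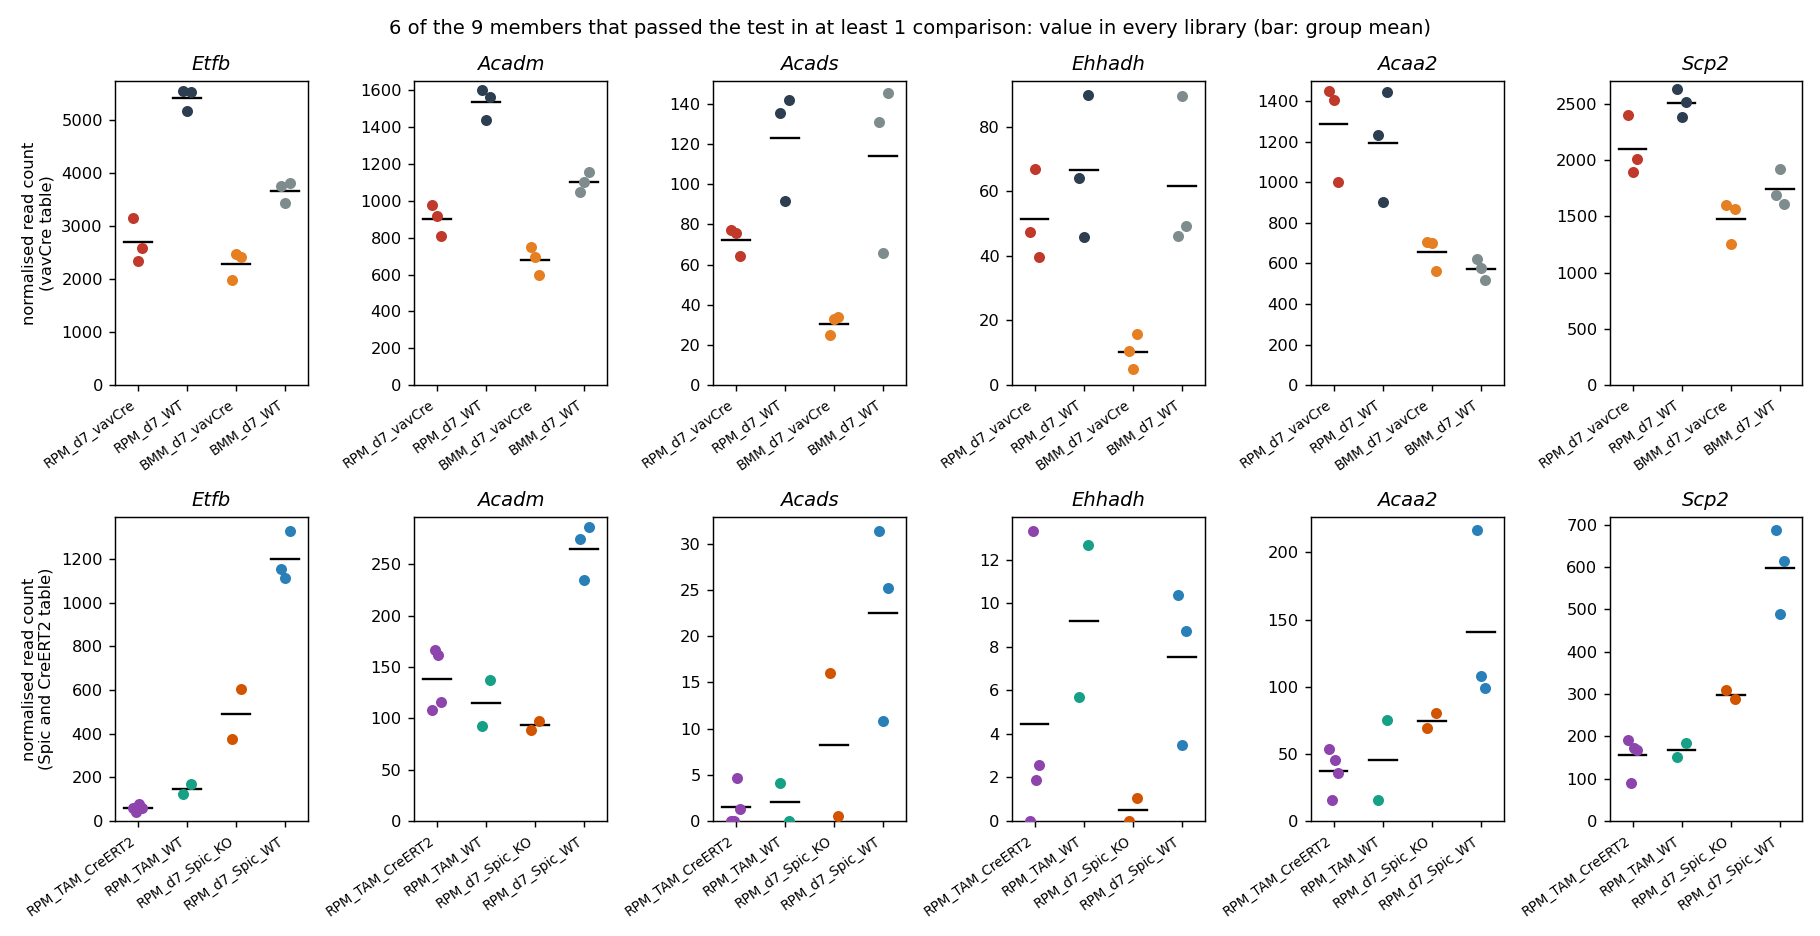
Normalised read counts of 6 members in every library (points) with the group mean (bar). The upper row shows the vavCre table and the lower row the other, on linear axes from 0. Etfb and Acadm were lower in each vavCre group than in its wild type with no overlap, and Etfb was lower in RPM_TAM_WT (123 and 170) than in RPM_d7_Spic_WT (1155, 1115 and 1329).

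**Figure D2:**
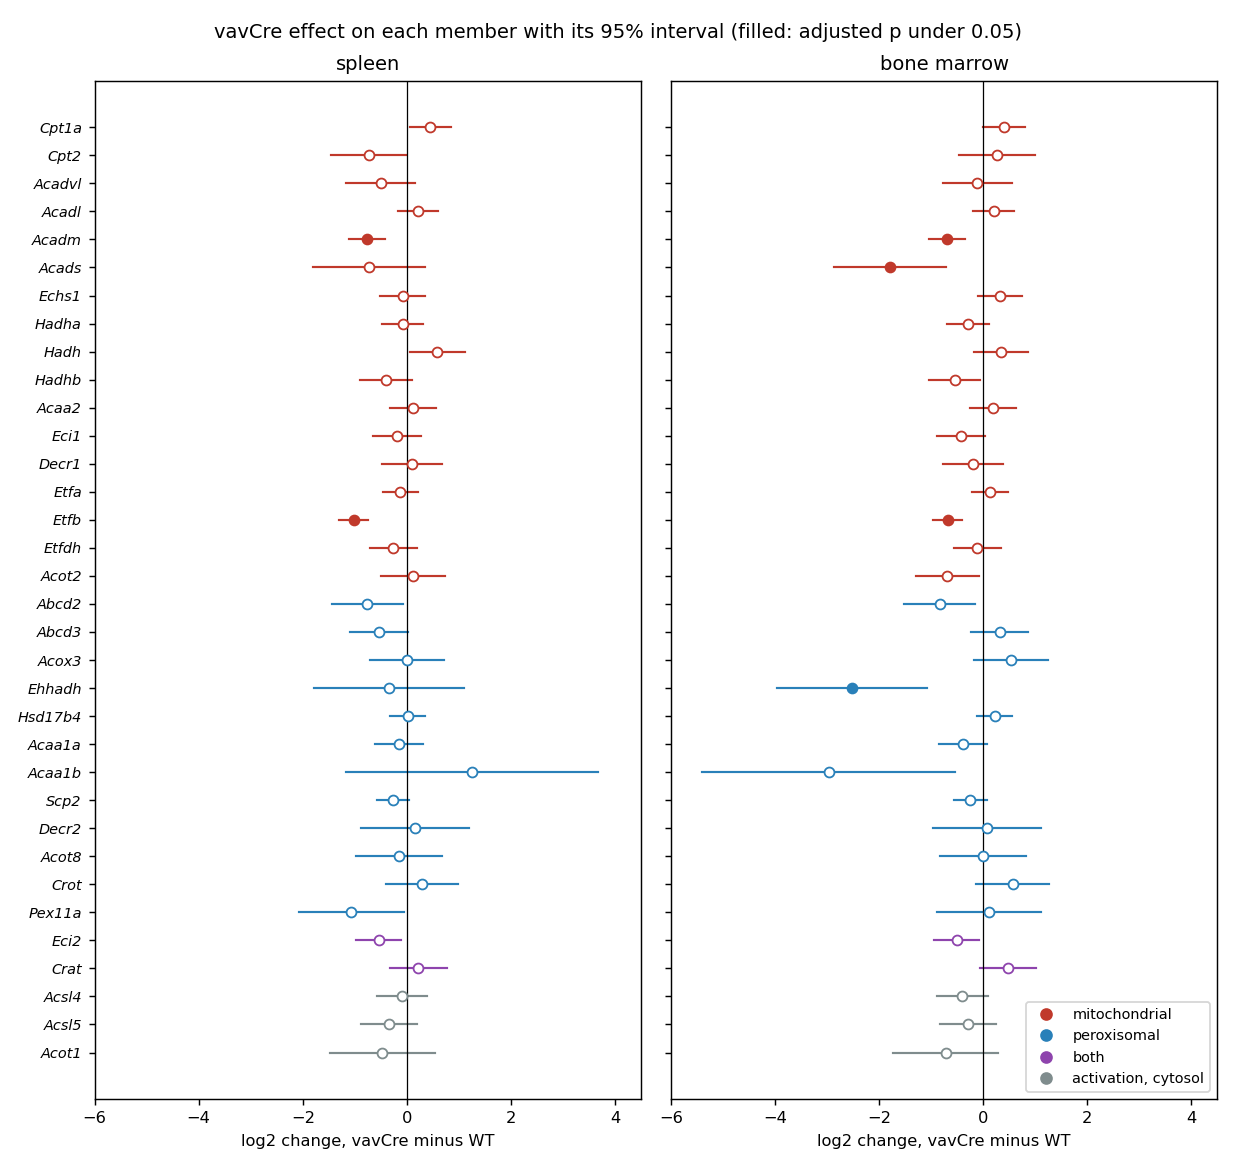
log2 change of each of the 34 members, vavCre minus wild type, in spleen (left) and bone marrow (right), with 95% intervals. Filled points passed at a limma adjusted p under 0.05, which were Etfb and Acadm in the spleen and Etfb, Acadm, Acads and Ehhadh in the marrow.

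Whether the spleen and the marrow responded differently was tested as an interaction. limma called 0 of 34 members, against 0.119% of all genes (0.112% with a higher and 0.00661% with a lower effect in the spleen), and edgeR and DESeq2 on recovered reads also called 0. At an unadjusted p under 0.05 there were 3 members, all peroxisomal: Acaa1b (4.22, spleen effect minus marrow effect), Ehhadh (2.17) and the importer Abcd3 (-0.86), whose adjusted p was 0.683, 0.777 and 0.76. The Ehhadh effect was -0.35 in the spleen and -2.52 in the marrow, and that difference of 2.17 ± 0.97 did not pass. For Etfb the difference between the effects was -0.33 ± 0.19 (limma adjusted p = 0.867).

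Ratios between partner genes in the same library do not depend on library scaling, and 4 pairs were chosen for this after the Etfb and Acadm values had been seen, so the ratios are given as a description. Etfb over Etfa was 1.64 to 1.69 in RPM_d7_vavCre against 2.93 to 3.36 in RPM_d7_WT, and 1.36 to 2.17 in BMM_d7_vavCre against 2.81 to 3.58 in BMM_d7_WT. Acadm over Acadl was 0.419 to 0.439 in RPM_d7_vavCre against 0.734 to 1.02 in RPM_d7_WT, and 0.391 to 0.560 in BMM_d7_vavCre against 0.705 to 1.03 in BMM_d7_WT. Etfb over Etfdh was 4.23 to 5.01 in RPM_d7_vavCre against 7.75 to 8.32 in RPM_d7_WT, and 4.15 to 5.37 in BMM_d7_vavCre against 6.10 to 9.40 in BMM_d7_WT. The groups were apart for these 3 pairs in both tissues. By contrast Hadhb over Hadha overlapped in both tissues, at 0.678 to 1.07 in RPM_d7_vavCre against 0.783 to 1.28 in RPM_d7_WT and 0.880 to 1.49 in BMM_d7_vavCre against 1.12 to 1.62 in BMM_d7_WT.

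**Figure D3:**
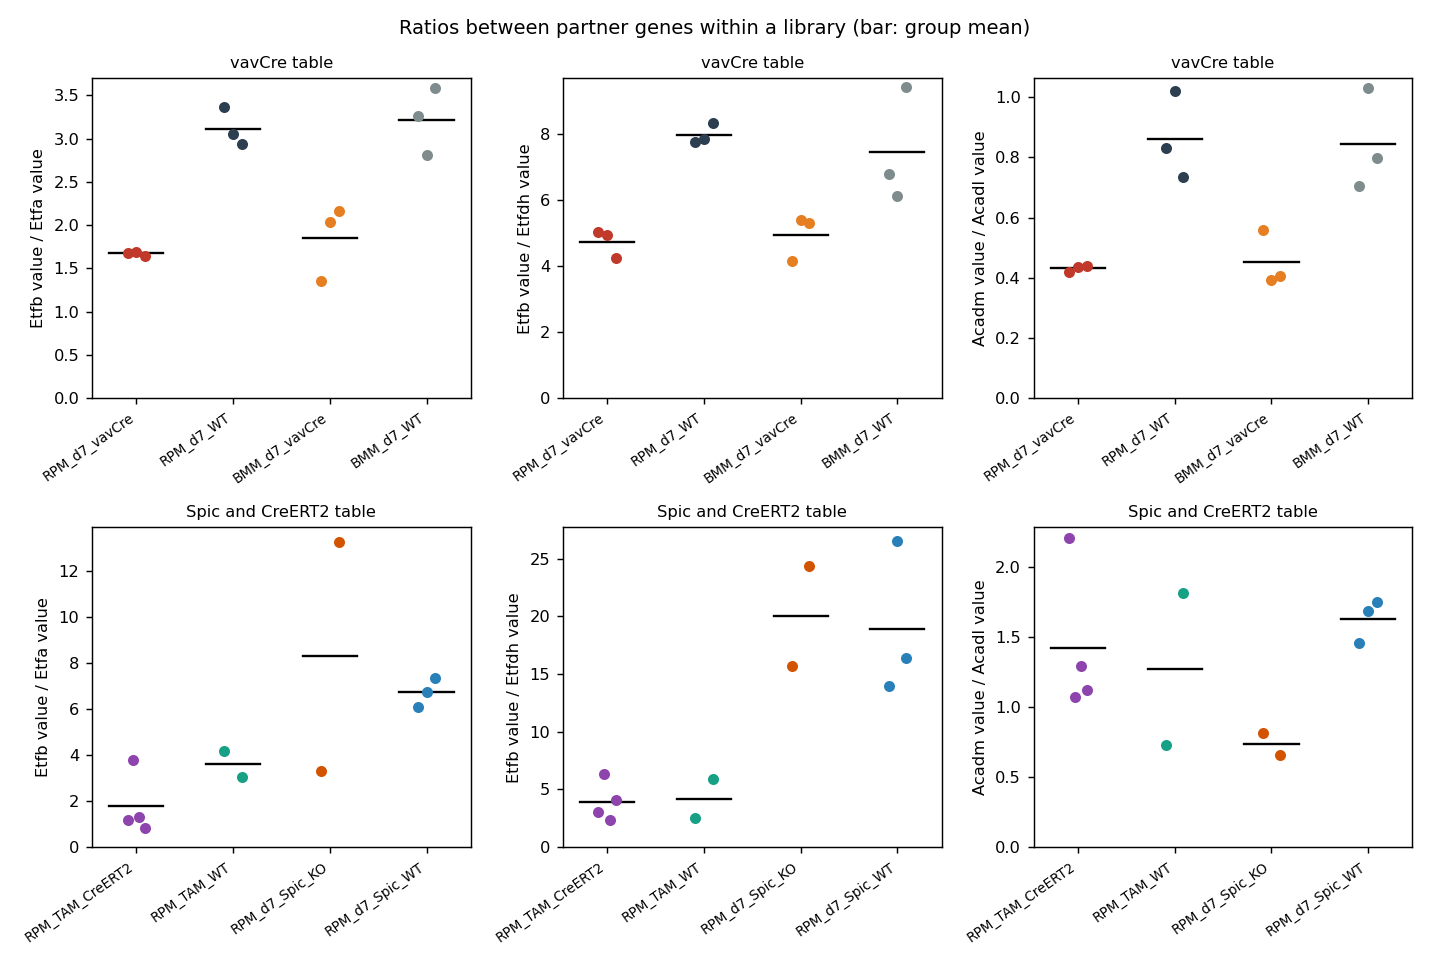
Ratio of the values of 2 partner genes within each library (points) with the group mean (bar), on linear axes from 0. In the vavCre table every vavCre library lay below every wild-type library of its tissue in all 3 ratios drawn (Etfb over Etfa, Etfb over Etfdh and Acadm over Acadl). In the other table Acadm over Acadl was lower in RPM_d7_Spic_KO (0.661 and 0.812) than in RPM_d7_Spic_WT (1.46 to 1.75).

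Markers of the cells themselves and of other cell types moved with the vavCre groups. Of 10 red pulp macrophage markers, 7 fell and 1 rose in each tissue, with a sum of 145738 to 165114 in RPM_d7_vavCre against 189916 to 216005 in RPM_d7_WT, while of 12 general macrophage markers 5 rose in each tissue and 2 fell in the marrow. Of 13 erythroid markers, 8 fell in the spleen and 11 in the marrow, and their sum was 119281 to 170374 in RPM_d7_vavCre against 228134 to 338603 in RPM_d7_WT, and 94180 to 137115 in BMM_d7_vavCre against 234831 to 346448 in BMM_d7_WT. No marker of these lists was at 0 throughout a group. The 8 megakaryocyte markers summed to 9254 to 14341 in RPM_d7_vavCre against 710.5 to 1005 in RPM_d7_WT and to 15915 to 17902 in BMM_d7_vavCre against 2651 to 4152 in BMM_d7_WT, with Pf4 the marker that rose. Most of that list did not follow its sum: 6 of 8 had a negative log2 change in the spleen (median -1.25) and 4 of 8 in the marrow, where Gp9 fell. In the marrow all 10 B cell markers had a negative change and 2 fell, with sums of 1333 to 3041 in BMM_d7_vavCre against 3958 to 10929 in BMM_d7_WT, while in the spleen 5 were negative and 1 fell. All 11 T and natural killer cell markers had a negative change in the marrow, 0 passed limma and 6 had an unadjusted p under 0.05, with 4 of the 11 at 0 in all BMM_d7_vavCre libraries. Adipoq, an adipocyte marker, fell in the marrow, and Pecam1, an endothelial marker, fell in both tissues. Of the 10 endothelial and stromal markers, 7 had a positive change in the spleen and 6 a negative change in the marrow. Of 13 neutrophil markers 2 rose in the spleen, where 11 had a positive change. In the marrow 1 rose, while 9 had a negative change (median -1.06). The 14 cell cycle genes summed to 12365 to 15967 in RPM_d7_vavCre against 24029 to 24957 in RPM_d7_WT and to 11191 to 16565 in BMM_d7_vavCre against 21472 to 26434 in BMM_d7_WT. The part of all these transcripts in the member results was not tested.

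Between tissues, most members were higher in spleen than in marrow macrophages; these comparisons use the same libraries as the vavCre ones above. In wild type 27 of the 34 had a positive log2 change, or 79.4%, against 52.4% of all genes, and the median was 0.36 against 0.02. Passing the test were 3 members, all mitochondrial (Acaa2, Etfa and Etfb), and all 3 were higher (8.82%, against 2.07% of all genes higher, 1.82% lower and 3.89% in either direction). Acaa2 had 1236, 901 and 1444 in RPM_d7_WT against 623, 578 and 516 in BMM_d7_WT. Every spleen library lay above every marrow library, at 1.04 ± 0.21 (limma adjusted p = 0.00845). Etfa had 1654, 1700 and 1884 in RPM_d7_WT against 1154, 1225 and 1067 in BMM_d7_WT (0.60 ± 0.16, limma adjusted p = 0.0433), and Etfb rose by 0.56 ± 0.13 (0.0214). The Acaa2 call was lost without RPM_d7_WT replicate 3 (0.0648), and the Etfa and Etfb calls in 6 and 5 of the 12 fits that left out 1 library, with adjusted p up to 0.179 for Etfa and 0.089 for Etfb, RPM_d7_WT replicates 1 and 3 and BMM_d7_WT replicates 1 and 3 among them for both genes, RPM_d7_WT replicate 2 and RPM_d7_vavCre replicate 3 for Etfa, and BMM_d7_WT replicate 2 for Etfb. Etfa also missed the threshold with no filter on low values (0.0535).

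Just outside the threshold in wild type were Scp2 (0.53, limma adjusted p = 0.0523) and Acot1, a cytosolic thioesterase (1.69, 0.0563). Between vavCre spleen and vavCre marrow, 25 of 34 members had a positive change (73.5%, against 51.8% of all genes; median 0.29 against 0.03), and 2 passed, both higher (5.88%, against 2.68% of all genes higher, 0.82% lower and 3.5% in either direction). Acaa2 had 1453, 1407 and 1002 in RPM_d7_vavCre against 707.5, 699 and 564 in BMM_d7_vavCre, a change of 0.96 ± 0.21 (limma adjusted p = 0.0151). That is close to its wild-type value, with an interaction of -0.08 ± 0.30. Acot1 had 278, 316 and 219.7 in RPM_d7_vavCre against 142, 92.1 and 24.9 in BMM_d7_vavCre (1.94 ± 0.48, limma adjusted p = 0.0292), and 19.2% of its 50-base windows are shared with its neighbours, mostly Acot2. Leaving out RPM_d7_vavCre replicate 1 (0.0843), RPM_d7_vavCre replicate 2 (0.0719) or BMM_d7_vavCre replicate 3 (0.0523) ended the Acaa2 call, and the Acot1 call was lost without any of the 3 RPM_d7_vavCre libraries (0.1, 0.109 and 0.0614), without BMM_d7_vavCre replicate 3 (0.0731), with only the compared groups in the fit (0.0859) and with no filter (0.0555). Non-overlapping groups numbered 13 in each of these comparisons, 38.2% of the members, against 20.6% of all genes in wild type and 19.5% in vavCre. Of 10 red pulp markers, 6 were higher in the spleen in wild type and 7 in vavCre, and of 10 B cell markers 4 and 2 were lower. Their part in the tissue differences was not tested.

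In RPM_d7_Spic_KO the members were mostly lower than in RPM_d7_Spic_WT, and again Acadm and Etfb passed. The log2 change was negative for 24 of the 34 (70.6%, against 49.9% of all genes) and positive for 10. SPIC is a transcription factor on which red pulp macrophages depend. Of 34 members 0 rose, against 1.47% of the 16650 genes tested, and 2 fell (5.88%), against 2.48% of all genes; in either direction 3.95% of all genes passed. The median log2 change was -0.87 over the members against 0 over all genes, with -1.29 over the mitochondrial and -0.76 over the peroxisomal members. Acadm had 88.6 and 97.8 in RPM_d7_Spic_KO against 274, 235 and 286 in RPM_d7_Spic_WT, and the groups were far apart (-1.50 ± 0.36, limma adjusted p = 0.0229). Etfb had 376.5 and 605 in RPM_d7_Spic_KO against 1155, 1115 and 1329 in RPM_d7_Spic_WT (-1.32 ± 0.34, limma adjusted p = 0.0316). Decr1, the mitochondrial dienoyl-CoA reductase that unsaturated chains need, had 7.51 and 4.14 in RPM_d7_Spic_KO, from 15 and 8 reads, against 72.8, 59.6 and 85.4 in RPM_d7_Spic_WT. Its change of -3.46 ± 1.00 missed the threshold (limma adjusted p = 0.056) and was past it in edgeR and DESeq2 on recovered reads (0.0314 with TMM factors and 0.00603).

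The Acadm call in RPM_d7_Spic_KO was lost without RPM_d7_Spic_WT replicate 1, 2 or 3 (limma adjusted p = 0.107, 0.0602 and 0.113) or RPM_d7_Spic_KO replicate 2 (0.0764), and the Etfb call without any RPM_d7_Spic_WT library (0.115, 0.0907 and 0.149) or RPM_d7_Spic_KO replicate 1 (0.126). Groups were apart in 20 of the 34 members, or 58.8%, against 34.2% of all genes. Some of these were higher in the knockout, without passing the test. Among them were Acot8, at 71.9 and 72.6 in RPM_d7_Spic_KO against 21.2 to 30.1 in RPM_d7_Spic_WT, and Decr2, at 24.5 and 51.7 against 13.7 to 18.8. Acadm over Acadl stood at 0.661 and 0.812 in the knockout against 1.46 to 1.75 in RPM_d7_Spic_WT, whereas Etfb over Etfa overlapped, at 3.30 and 13.3 against 6.11 to 7.36. Pparg, the receptor for which the series is named, averaged 23.9 ± 3.04 in RPM_d7_Spic_KO (n = 2) against 254 ± 66.3 in RPM_d7_Spic_WT (n = 3; -3.33, limma adjusted p = 2.9e-05). Composition differed as well: mitochondrially encoded genes took 1.24 and 1.89% of the values in the knockout against 3.77 to 4.48% in RPM_d7_Spic_WT, and the single gene Lars2 took 2.09 and 2.15% against 0.274 to 0.791%. Of 10 red pulp markers 4 fell, and their sum was 11399.6 to 11591 in the knockout against 20882 to 30361 in RPM_d7_Spic_WT. The megakaryocyte markers, of which Pf4 rose while 6 of 8 had a negative change and 3 were at 0 in both knockout libraries, summed to 1056 to 1548 in the knockout against 71.3 to 115 in RPM_d7_Spic_WT. The part of these differences in the member results was not tested.

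In adult RPM_TAM_CreERT2 macrophages 0 of 34 members passed limma, against 0.144% of all genes (0.0601% higher and 0.0841% lower), and 2 had an unadjusted p under 0.05. Etfb had 61.3, 42.1, 77.1 and 57.8 in RPM_TAM_CreERT2, from 19 to 82 reads each, against 123 and 170 in RPM_TAM_WT. The groups did not overlap, at -1.30 ± 0.32 (limma adjusted p = 0.168). edgeR on recovered reads called 0 members and DESeq2 called 1, Etfb (-1.27, DESeq2 adjusted p = 0.00691). Acadvl, very-long-chain acyl-CoA dehydrogenase, had 11.4, 19.9, 10.4 and 7.71 in RPM_TAM_CreERT2 against 35.1 and 38.7 in RPM_TAM_WT (-1.58 ± 0.66, limma adjusted p = 0.588). Acadm stood at 0.26 with a 95% interval of -0.46 to 0.98, and no change was detectable at this depth. Groups were apart in 4 of 34 members, or 11.8%, against 13.7% of all genes. The median change was -0.23 against 0 over all genes, or -0.08 over all genes with a minimum value of 10. Globin transcripts took 12.7 to 20.7% of the values in RPM_TAM_CreERT2 against 7.44 to 10.9% in RPM_TAM_WT. Of the 14 erythroid markers tested, 2 rose and 9 had a negative change. Without globin the erythroid markers summed to 1110 to 2361 in RPM_TAM_CreERT2 against 1782 and 3159 in RPM_TAM_WT.

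Adult and pup wild types can be set side by side as RPM_TAM_WT against RPM_d7_Spic_WT, where age and the TAM label cannot be told apart. Both groups also serve as controls above, so these values share libraries with the CreERT2 and Spic_KO comparisons. In the adults 28 of 34 members had a negative log2 change (82.4%, against 45.7% of all genes). The median was -0.78 against 0 over all genes, or -0.05 over all genes with a minimum value of 10. Of the members 3 fell (8.82%, against 1.86% of all genes) and 0 rose (against 1.56%). In either direction 3.42% of all genes passed. Etfb had 123 and 170 in RPM_TAM_WT against 1155, 1115 and 1329 in RPM_d7_Spic_WT. That is a log2 change of -3.04 ± 0.34 (limma adjusted p = 2.93e-05), which passed in every alternative and with each library left out. Scp2, the peroxisomal thiolase and sterol carrier, had 152 and 183 in RPM_TAM_WT against 688.5, 489 and 615 in RPM_d7_Spic_WT (-1.82 ± 0.34, limma adjusted p = 0.00413). Eci2, an enoyl-CoA isomerase, had 17.2 and 46.7 in RPM_TAM_WT against 201.5, 187 and 188 in RPM_d7_Spic_WT (-2.71 ± 0.62, limma adjusted p = 0.0161).

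The Scp2 call was lost without RPM_TAM_WT replicate 1 (limma adjusted p = 0.129), and the Eci2 call without RPM_TAM_WT replicate 1 (0.4) or any of the 3 RPM_d7_Spic_WT libraries (0.0722, 0.0588 and 0.061). With only the 2 compared groups in the fit, 10 members fell. Scp2 shares 29.7% of its 50-base windows with other annotated genes, mostly the pseudogene Scp2-ps2. Close to the threshold were Acaa1a (-2.13, limma adjusted p = 0.0544), Eci1 (-2.69, 0.063) and Acadm (-1.22, 0.0729). Members above 0 in the adults included Acsl4 (0.63), an acyl-CoA synthetase for polyunsaturated chains, and Hadhb (0.49). Non-overlapping groups were found in 21 of 34 members, 61.8%, against 37.6% of all genes. Lars2 took 8.57 and 12.1% of the values in RPM_TAM_WT against 0.274 to 0.791% in RPM_d7_Spic_WT, and mitochondrially encoded genes 1.96 and 3.30% against 3.77 to 4.48%. Of 7 dendritic cell and monocyte markers all 7 had a positive change and 2 rose, with sums of 316 and 477 in RPM_TAM_WT against 12.3 to 27.3 in RPM_d7_Spic_WT, and 3 of 12 general macrophage markers fell (Tyrobp, Fcgr1 and Mertk). Of 11 T and natural killer cell markers, 9 were tested and 2 rose, and of 10 B cell markers 9 were tested and 4 rose. The part of these differences was not tested.

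**Figure D4:**
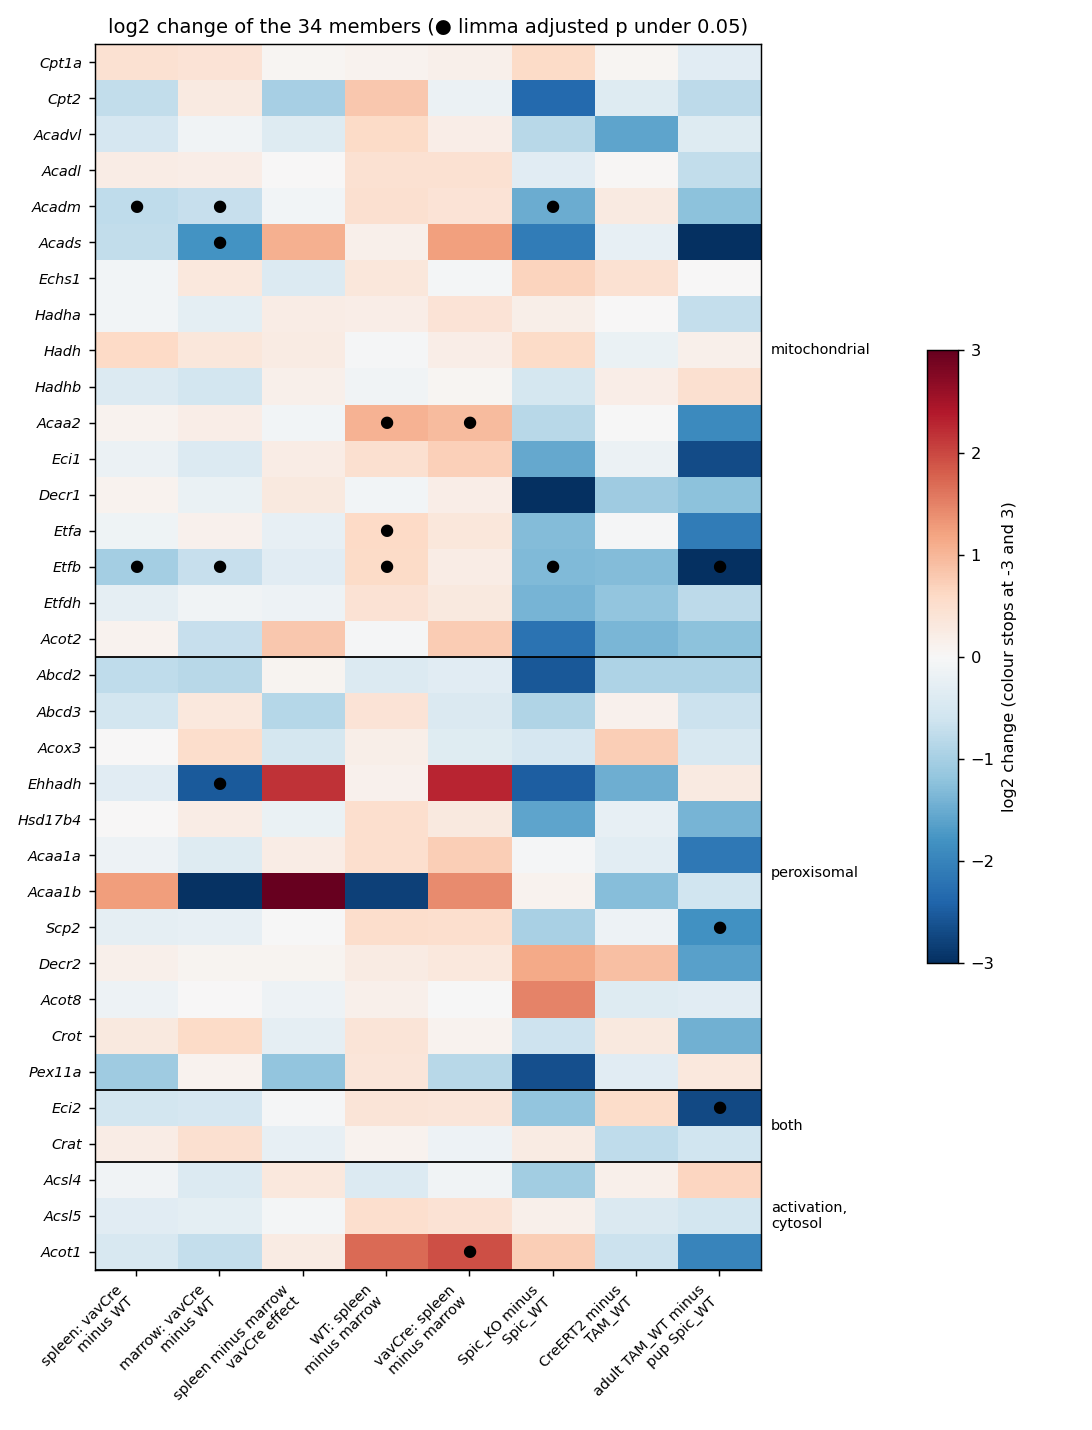
log2 change of the 34 members (rows, grouped by compartment) in 8 comparisons (columns), with the colour scale stopping at -3 and 3. Dots mark a limma adjusted p under 0.05: 2 members in vavCre spleen, 4 in vavCre marrow, 0 in the interaction, 3 and 2 between tissues, 2 in Spic_KO, 0 in CreERT2 and 3 between adult and pup wild types.

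Reads of Etfb carry a limit of their own. The gene overlaps Gm45233 on the same strand of chromosome 7, and 44.8% of the 50-base windows of its exons occur in another annotated gene. The table with the Spic and CreERT2 groups lists Gm45233 with 64.8 to 147% as many reads as Etfb in its 11 libraries, so there the transcripts cannot be told apart. This percentage differed between the groups compared. It was 96.8 to 98.7% in RPM_d7_Spic_WT, 86.0 and 93.8% in RPM_d7_Spic_KO, and 79.5 and 81.9% in RPM_TAM_WT. In RPM_TAM_CreERT2 it was 64.8 to 147%, the last from 28 against 19 reads. The vavCre table does not list Gm45233, and how reads of the shared stretch were assigned there is not stated.

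Values scaled by length were also summed over each compartment, with and without Etfb. The 17 mitochondrial members summed to 6368 to 7945 per kb in RPM_d7_vavCre against 8792 to 10049 per kb in RPM_d7_WT. Without Etfb the other 16 summed to 4141 to 5240.2 per kb in RPM_d7_vavCre against 4342 to 5299 per kb in RPM_d7_WT. The groups were apart with Etfb and overlapped without it. In the marrow the sums without Etfb were 3243 to 3609 per kb in BMM_d7_vavCre against 3334 to 3483 per kb in BMM_d7_WT. Etfb alone made up 30.5 to 34.97% of the mitochondrial sum in RPM_d7_vavCre against 47.3 to 50.6% in RPM_d7_WT, and 33.3 to 39.1% in BMM_d7_vavCre against 45.9 to 49.6% in BMM_d7_WT.

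The 12 peroxisomal members summed to 1589 to 1903 per kb in RPM_d7_vavCre against 1912 to 1957 per kb in RPM_d7_WT, groups that lay next to each other without overlap. In the marrow they overlapped, at 1257 to 1484 per kb in BMM_d7_vavCre against 1399 to 1529 per kb in BMM_d7_WT. In RPM_d7_Spic_KO both compartments were lower: the mitochondrial sum without Etfb was 346 and 372 per kb against 492 to 714 per kb in RPM_d7_Spic_WT, and the peroxisomal sum was 205 and 232 per kb against 275 to 356 per kb. The adult groups overlapped each other in both sums, at 244 to 309 per kb in RPM_TAM_CreERT2 and 261 to 312 per kb in RPM_TAM_WT for the mitochondrial members without Etfb, and at 83.9 to 128 and 108 to 125 per kb for the peroxisomal members. Of the combined sum of both compartments, Etfb included, peroxisomal members made up 19.3 to 21.2% in RPM_d7_vavCre against 16.2 to 17.9% in RPM_d7_WT, and 20.6 to 23.4% in RPM_d7_Spic_KO against 15.9 to 17.3% in RPM_d7_Spic_WT, with no overlap. The share was 18.0 to 22.5% in BMM_d7_vavCre against 17.4 to 19.2% in BMM_d7_WT, where the groups overlapped. They also overlapped at 22.0 to 28.2% in RPM_TAM_CreERT2 against 21.4 to 22.8% in RPM_TAM_WT. Because the combined sum includes Etfb, this share also rises when Etfb alone falls. The peroxisomal sums themselves were lower in RPM_d7_vavCre and RPM_d7_Spic_KO than in their controls. Scp2 was their largest term, with a mean of 604 per kb in RPM_d7_vavCre against 722 per kb in RPM_d7_WT. In RPM_d7_Spic_KO it averaged 85.9 per kb of a mean sum of 218, against 172 of 326 in RPM_d7_Spic_WT. The peroxisomal sums without Scp2 were not compared. The share without Etfb was not compared.

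**Figure D5:**
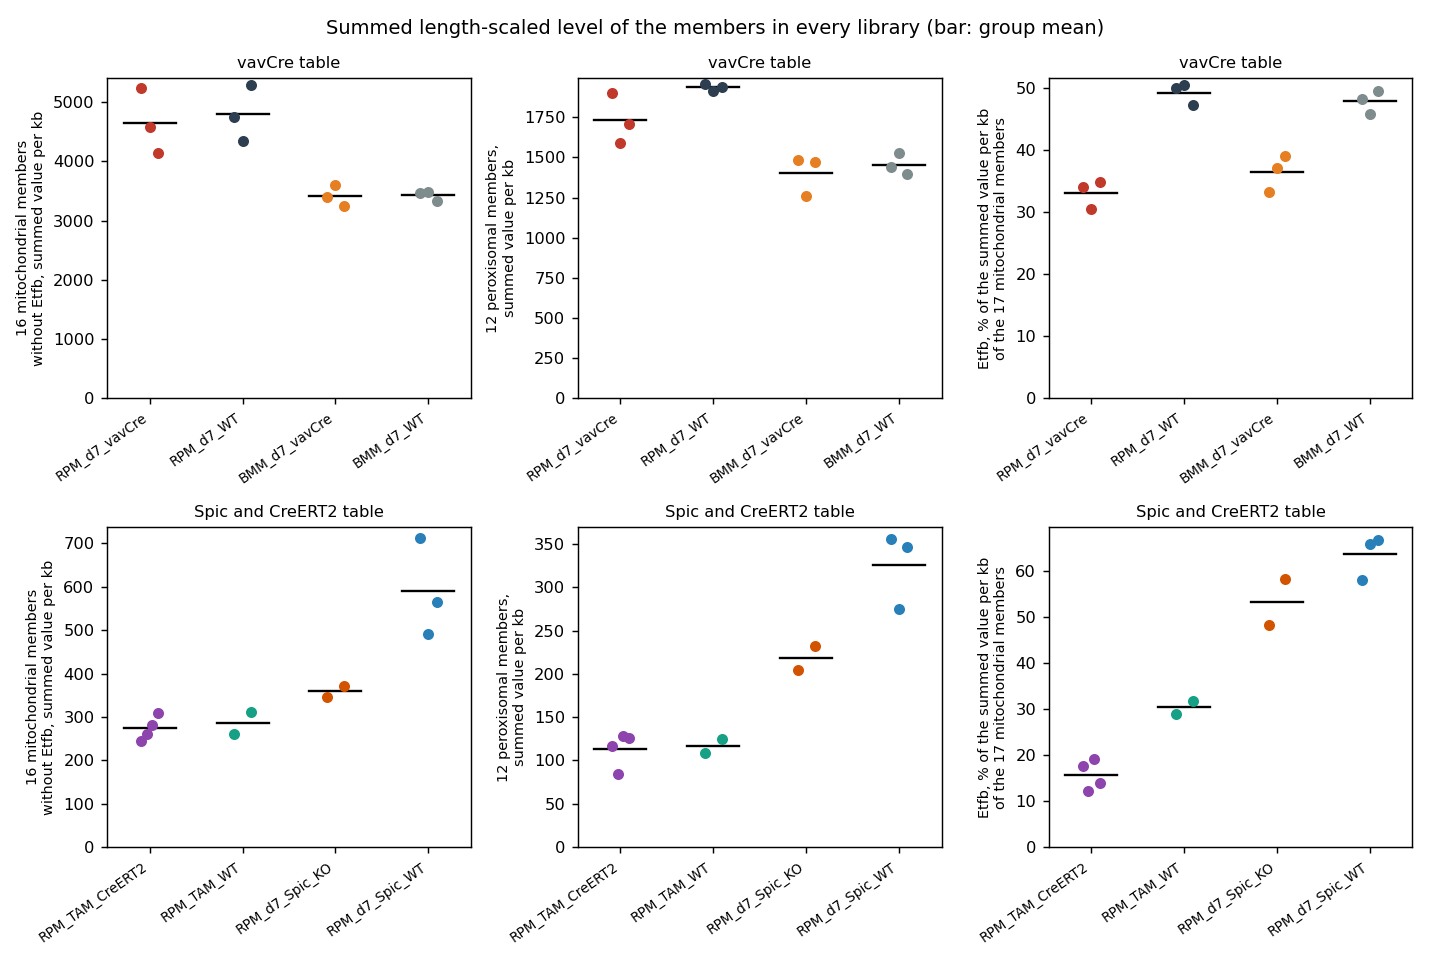
Summed normalised value per kb of exon of the 16 mitochondrial members other than Etfb (left), of the 12 peroxisomal members (middle), and Etfb as a percentage of the mitochondrial sum (right), in every library (points) with the group mean (bar). Etfb made up 12.1 to 19.1% in RPM_TAM_CreERT2, 28.9 to 31.9% in RPM_TAM_WT, 48.3 to 58.3% in RPM_d7_Spic_KO and 58.2 to 66.9% in RPM_d7_Spic_WT.

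Other genes of these pathways were read from 5 lists of 116 genes, of which 110 were tested in the vavCre table and 106 in the other. In vavCre spleen 0 rose and 8 fell (7.27%), against 2.54% of all genes that fell and 5.52% that passed in either direction. They included Ech1, a dienoyl-CoA isomerase found in both organelles (1367 ± 274 in RPM_d7_vavCre against 2695 ± 499 in RPM_d7_WT, -0.98, limma adjusted p = 0.00167), Cat, the catalase that breaks down peroxisomal hydrogen peroxide (2266 ± 204 against 3673 ± 208, -0.70, 0.00382), and Pecr, a peroxisomal enoyl-CoA reductase (83.5 ± 20.4 against 263 ± 13.5, -1.67, 0.0206). The coactivator gene Ppargc1b, which promotes mitochondrial gene expression, was at -2.38 (limma adjusted p = 0.0265). In vavCre marrow 3 rose and 6 fell (8.18%, against 7.81% of all genes), with Cat again lower (-0.71, limma adjusted p = 0.0031) and Agps, an enzyme of ether lipid synthesis in peroxisomes, higher (0.68, 0.0111). None of the 19 peroxisome assembly and division genes on the list passed in either tissue, with 2 and 0 at an unadjusted p under 0.05.

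Between tissues 2 of the 110 genes passed in each genotype (1.82%), all higher in the spleen. Of all genes 2.07% were higher in wild type and 2.68% in vavCre, and 3.89% and 3.5% passed in either direction. Ucp2, a carrier of the inner mitochondrial membrane, was among them in both genotypes (0.95 in wild type, limma adjusted p = 0.00319, and 1.15 in vavCre, 0.000482). In RPM_d7_Spic_KO 1 of 106 rose and 4 fell (4.72%, against 3.95% of all genes). Ucp2 averaged 841 ± 51.3 in RPM_d7_Spic_KO (n = 2) against 3011 ± 1222 in RPM_d7_Spic_WT (n = 3; -1.77, limma adjusted p = 0.000256), and Fis1, a membrane protein of mitochondrial and peroxisomal fission, 161 ± 27.5 against 472 ± 67.2. Acacb, the acetyl-CoA carboxylase whose product blocks the carnitine shuttle, was the gene that rose, and it was at 0 in the 3 RPM_d7_Spic_WT libraries. In CreERT2 0 of 106 passed limma, against 0.144% of all genes, and 7 had an unadjusted p under 0.05. Between adult and pup wild types 0 rose and 4 fell (3.77%), against 1.86% of all genes that fell and 3.42% that passed in either direction. Among the 4 was Ech1, at 63.8 ± 33.6 in RPM_TAM_WT (n = 2) against 421 ± 90.1 in RPM_d7_Spic_WT (n = 3). Its change was -2.79 (limma adjusted p = 0.000657).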

How the data were processed

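Per the labels, each library came from 1000 flow-sorted cells by oligo-dT priming, PCR amplification and tagmentation. STAR, edgeR and GRCm38 appear in the submitters' processing notes, with no role or version; the counting method and its use of strand are not given in the sources used here. The authors deposited normalised read counts, a signal in which the step between low values differs by library. Division by that step recovered whole reads (tolerance 0.1) in each vavCre library for 97.7% or more of the values under 500 reads, and for 96.4% or more in the other table.

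Genes reaching a value of 1 in 2 or more libraries were compared on the log2(value + 1) scale with limma 3.58.1 (trend, robust, R 4.3.3). Each group had its own mean, the libraries of a table shared 1 estimate of the spread (8 and 7 residual degrees of freedom), and p-values were adjusted by Benjamini-Hochberg over all genes. The fit was tested on simulated data. Alternatives were no filter, a minimum of 10, pseudocounts of 0.1 and 5, a required log2 change of 1, fits on the compared groups alone, a replicate block, edgeR 4.0.16 and DESeq2 1.42.0 on recovered reads, and omission of each library. All members may be named, and up to 4 other pathway genes per comparison by smallest adjusted p. Exon lengths (the union of all annotated exons of a gene) and 1-based gene coordinates come from GENCODE vM21, and promoter windows and start sites from RefSeq. The members and lists were chosen with earlier results of these data known.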

Additional observations from a re-analysis of the deposited data

Results flagged for a closer look

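Within the 4 RPM_TAM_CreERT2 libraries, 2 members had 1 library far from the other 3, out of 33 members for which this could be computed, and chance alone gives about 1 in 20. Crat, a carnitine acetyltransferase, had 6.65 normalised reads in replicate 2 and 38.6 to 43.3 in the others. Decr2, a peroxisomal dienoyl-CoA reductase, had 32.0 in replicate 4 and 4.43 to 6.82 in the others.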

How the results depend on the processing

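Counts of members called moved as follows. In vavCre spleen (2 in the report) a log2 change of at least 1 left 1. In vavCre marrow (4) edgeR with TMM or RLE factors gave 2 each, a log2 change of at least 1 gave 2, and the compared groups only gave 1. Between wild-type tissues (3) the filter of 10 and edgeR with TMM gave 5, DESeq2 gave 7 and a log2 change of at least 1 gave 1. Between vavCre tissues (2) no filter, the compared groups only and a log2 change of at least 1 gave 1 each and DESeq2 gave 6. For Spic_KO (2) DESeq2 gave 6 and the replicate block gave 0, and for CreERT2 (0) DESeq2 gave 1. Between adult and pup wild types (3) the filter of 10 gave 6, edgeR gave 5 with either factor, DESeq2 gave 8 and the compared groups only gave 10. The other alternatives stayed within 1.5 times of the reported counts. With each library left out the counts ran from 1 to 2 in vavCre spleen, 1 to 5 in vavCre marrow, 0 to 0 in the interaction and in CreERT2, 0 to 4 and 0 to 2 between tissues, 0 to 6 for Spic_KO (6 without RPM_d7_Spic_KO replicate 1) and 1 to 7 between adult and pup. The causes of these moves were not tested. No called member changed sign in any alternative.

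Same-numbered libraries did not deviate together (correlations of -0.045 to 0.072), so the numbers were not treated as pairs. With a replicate block 0 members were called in Spic_KO, against 2 without it (Acadm at an adjusted p of 0.144 and Etfb at 0.164), and Acads in vavCre marrow (0.0523) and Etfa between wild-type tissues (0.0595) were also lost. No paired analysis was possible because of shared numbers for CreERT2 alone, where the groups have only number 1 in common. The RPM_TAM_CreERT2 libraries were the shallowest, with 22 of 34 members under 20 reads in at least 1 of them.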
